A study of Mus musculus with 6 samples.

Results

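The genes described here are those of the LIN28 and let-7 axis, 10 genes chosen by name as LIN28 proteins, known let-7 targets and oncofetal RNA-binding proteins: Lin28a, Lin28b, Hmga2, Igf2bp1, Igf2bp2, Igf2bp3, Trim71, Dis3l2, Myc and Mycn. A probe set (a group of array probes for 1 transcript) counted for a gene when the array's annotation named that gene alone. Probe sets were found for 9 of the 10 genes, 26 in all, out of 18193 genes and 45037 probe sets on the array, and Igf2bp2 was not analysed here. The knockout against wild-type difference of Lin28a was already known when these genes were put together, so the differences of the 10 genes are given as a description, without a test of the group.

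Ovaries of mouse embryos at E15.5 (days of embryonic development) were profiled on Affymetrix arrays, 3 from Dmrt1 knockout embryos and 3 from wild-type embryos. The knockout is a conditional removal of Dmrt1, which encodes a DM domain transcription factor of germ cells and testis. The Cre line, the cells in which it acts, the strain and the number of embryos behind a sample are not given in the sources used here. Replicates are numbered 1 to 3 in each group without a statement that they are separate animals. The p-values here therefore set each difference against the scatter among these samples only, which may be technical scatter.

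LIN28A and LIN28B are RNA-binding proteins that hold back the maturation of let-7 microRNAs in early embryos, stem cells and early germ cells. They bind the let-7 precursor and bring in the uridylyl transferases TUT4 and TUT7, whose added uridine tail marks the precursor for decay by the exonuclease DIS3L2. When let-7 matures, it represses mRNAs with matching sites, among them those of LIN28 itself, HMGA2, TRIM71, MYC and the IGF2BP proteins. In mouse primordial germ cells LIN28 is known to act upstream of PRDM1 (BLIMP1) through let-7.

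The let-7 family is defined by its seed, bases 2 to 8 of the mature RNA, which is shown here because it decides which mRNAs count as targets. In the RefSeq table used (build GRCm38.p6), the seed GAGGUAG stood in 13 mature entries with 11 different sequences, among 1738 mature microRNAs. The 9 best known of them follow, 5′ to 3′, with the seed in capitals.
let-7a-5p: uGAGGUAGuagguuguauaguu
let-7b-5p: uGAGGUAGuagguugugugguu
let-7c-5p: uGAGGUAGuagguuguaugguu
let-7d-5p: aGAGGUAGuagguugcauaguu
let-7e-5p: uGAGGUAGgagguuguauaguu
let-7f-5p: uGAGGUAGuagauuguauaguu
let-7g-5p: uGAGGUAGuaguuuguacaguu
let-7i-5p: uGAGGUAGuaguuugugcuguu
miR-98-5p: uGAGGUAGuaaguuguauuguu

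Precursors differ in a second feature that LIN28 proteins read. Their zinc knuckles bind the letters GGAG in the loop side of the precursor. Of 12 hairpins of the family (11 let-7 genes and Mir98), 9 held GGAG between the 2 mature arms and 3 did not, namely Mirlet7b, Mirlet7c-2 and Mir98. In the hairpins below the seed is in capitals and so is GGAG where it lies between the arms. Mirlet7a-1, Mirlet7g and Mirlet7c-1 have it, while Mirlet7b and Mirlet7c-2 lack it.
Mirlet7a-1 (chr13:48538179-48538272, minus strand): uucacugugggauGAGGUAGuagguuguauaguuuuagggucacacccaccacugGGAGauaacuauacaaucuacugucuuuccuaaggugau
Mirlet7g (chr9:106178840-106178927, plus strand): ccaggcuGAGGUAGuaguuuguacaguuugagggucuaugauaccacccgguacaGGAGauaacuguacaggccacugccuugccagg
Mirlet7c-1 (chr16:77599657-77599750, plus strand): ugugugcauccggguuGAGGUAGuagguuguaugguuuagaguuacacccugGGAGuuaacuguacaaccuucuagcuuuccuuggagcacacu
Mirlet7b (chr15:85707319-85707403, plus strand): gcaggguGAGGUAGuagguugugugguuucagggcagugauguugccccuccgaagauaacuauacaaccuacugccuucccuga
Mirlet7c-2 (chr15:85706603-85706697, plus strand): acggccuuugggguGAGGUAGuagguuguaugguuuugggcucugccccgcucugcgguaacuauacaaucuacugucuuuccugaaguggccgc

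The array named no let-7 gene in the annotation used here, so no level of a let-7 microRNA or of its precursor was measured. The data below are mRNA levels of the proteins that act on let-7 and of its targets. Values are log2 of the deposited intensity. A probe set was tested when at least 3 of the 6 arrays reached log2 4, or 16 intensity units, called the filter level below. Of the 26 probe sets 17 were tested, which covered 7 genes. Lin28b and Myc had no tested probe set.

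The median intensity of an array lay at 13.1 to 13.4 for knockout and at 14.4 to 14.7 for wild type. Pairs of arrays from the same group had a Pearson correlation of 0.985 to 0.993, and pairs from different groups one of 0.973 to 0.980. Markers of germ cells and pregranulosa cells were present on all arrays, with Ddx4 at 10.35 to 11.03 on knockout arrays and 10.18 to 10.33 on wild-type arrays, and Foxl2 at 7.01 to 8.23 on knockout arrays and 7.83 to 7.99 on wild-type arrays. The Sertoli cell hormone gene Amh stayed under the filter level on all 6 arrays. Dmrt1 itself read 2.58 to 3.10 across the knockout arrays, against 3.08 to 3.70 across the wild-type ones, under the filter level throughout, so it does not check the genotype. Xist, the RNA that silences an X chromosome in female cells, was at 1.66 to 2.0 over its 3 probe sets on knockout replicate 1, against 9.16 to 10.09 on knockout replicates 2 and 3 and 9.87 to 11.41 in wild type. Probe sets of Uty, Kdm5d and Eif2s3y on the Y chromosome read 0.66 to 1.93 over all 6 arrays. Knockout replicate 1 therefore stands apart, and each difference of the 7 genes is also given without it.

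Lin28a, the LIN28 protein of early embryos and germ cells, was higher in knockout, with every knockout array above every wild-type array. Its brightest probe set (1421749_at) read log2 9.96, 7.83 and 6.63 on knockout replicates 1 to 3, against 4.82, 4.98 and 4.88 on wild-type replicates 1 to 3. The knockout arrays ran from far above the wild-type arrays to moderately above them, while the wild-type arrays lay close together just over the filter level. The knockout mean was 8.14 ± 1.69 and the wild-type mean 4.89 ± 0.08 (SD, n = 3 each). Set against the wild-type mean, knockout replicate 1 was 33.4-fold higher, knockout replicate 2 was 7.65-fold higher and knockout replicate 3 was 3.33-fold higher. The mean difference was 3.24 ± 0.63 log2 units (limma standard error), a 9.48-fold difference, and 8 of the 11897 tested genes had a larger one. Without knockout replicate 1 the difference was 2.34 ± 0.32, or 5.05-fold.

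The other Lin28a probe set (1437752_at) also separated the groups. It read 8.43, 6.28 and 5.31 on knockout replicates 1 to 3, and 3.05, 3.10 and 3.44 on wild-type replicates 1 to 3. All wild-type values lay under the filter level and all knockout values over it, so the fold is a bound of at least 6.37, taken against the filter level. The fitted difference was 3.47 ± 0.61, and 2.59 without knockout replicate 1.

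Lin28b, the paralogue with the same action on let-7, was not detected above the filter level on any array. Its only probe set read 2.03, 1.79 and 1.98 on knockout replicates 1 to 3 and 2.0, 1.88 and 1.79 on wild-type replicates 1 to 3. The groups overlapped, and no fold can be given at that level.

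**Figure D1:**
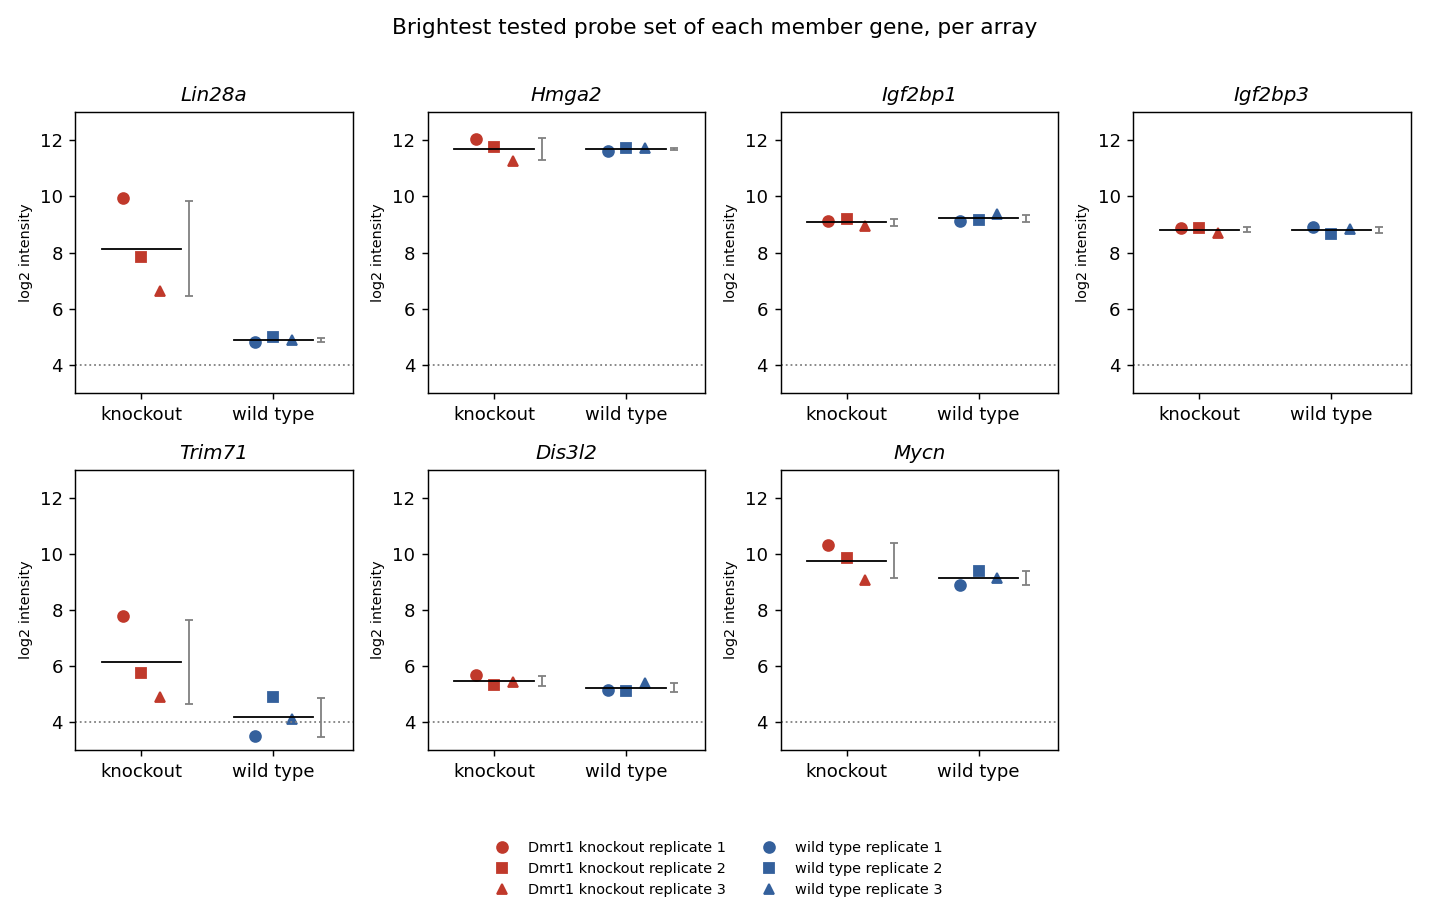
Log2 intensity of the brightest tested probe set of 7 genes on each of the 6 arrays, knockout (red) left of wild type (blue), 1 marker shape per replicate number. Black lines are group means, grey bars 1 SD, and the dotted line is the filter level of log2 4. Lin28a lies at 6.63 to 9.96 on knockout arrays and at 4.82 to 4.98 on wild-type arrays, while Hmga2, Igf2bp1 and Igf2bp3 overlap between the groups.

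Among the let-7 targets, Trim71 had its highest value on knockout replicate 1 and did not pass the threshold in either probe set. TRIM71 is an RNA-binding ubiquitin ligase of stem cells and early embryos, and its mRNA is a classical let-7 target first found in worms as lin-41. Its brightest probe set (1453599_at) read 7.80, 5.75 and 4.89 on knockout replicates 1 to 3, against 3.52, 4.89 and 4.12 on wild-type replicates 1 to 3. Knockout replicate 1 was far above the rest, and knockout replicate 3 was level with wild-type replicate 2, at 29.64 against 29.62 intensity units. The knockout mean was 6.15 ± 1.49 and the wild-type mean 4.18 ± 0.68 (SD, n = 3 each), a difference of 1.97 ± 0.62 (SE). With wild-type replicate 1, which lay under the filter level, set at that level, the fold was 3.51. Without knockout replicate 1 the fitted difference was 1.15 ± 0.39.

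The other Trim71 probe set (1456673_at) was high on knockout replicate 1 alone. It read 6.73, 4.28 and 4.13 on knockout replicates 1 to 3 and 3.87, 3.96 and 4.01 on wild-type replicates 1 to 3. The groups did not overlap. Its difference was 1.10 ± 0.56 with all arrays and 0.25 without knockout replicate 1.

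Lin28a and Trim71 were the pair of these genes whose tested probe sets did not overlap between the groups, by a very small gap in the brightest of Trim71. The DNA before the starts of Lin28a and Trim71 is therefore shown. The 250 bases before each start (RefSeq, GRCm38.p6) are given 5′ to 3′ along the gene, with CpG dinucleotides in capitals.
Lin28a (chr4:134018817-134019066, minus strand): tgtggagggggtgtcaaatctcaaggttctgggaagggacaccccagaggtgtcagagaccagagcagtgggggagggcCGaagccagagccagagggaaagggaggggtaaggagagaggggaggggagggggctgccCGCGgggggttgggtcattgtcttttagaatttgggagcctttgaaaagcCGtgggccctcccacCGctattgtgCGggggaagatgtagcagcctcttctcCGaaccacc
Trim71 (chr9:114564370-114564619, minus strand): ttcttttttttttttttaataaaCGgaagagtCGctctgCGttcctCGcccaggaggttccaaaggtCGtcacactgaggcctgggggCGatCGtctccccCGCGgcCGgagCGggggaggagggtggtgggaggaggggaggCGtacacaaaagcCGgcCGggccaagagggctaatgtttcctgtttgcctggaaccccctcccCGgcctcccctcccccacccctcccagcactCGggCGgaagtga
The Lin28a stretch has 7 CpG dinucleotides and 61.2% G and C, and the Trim71 stretch has 17 and 62.8%, against medians of 6 and 52.4% over 32851 such stretches. A DM domain core, ACATTGT, was searched on both strands (its other strand reads ACAATGT), as were the octamer ATTTGCAT (other strand ATGCAAAT) bound by POU factors and the E-box CACGTG bound by MYC dimers. None of the motifs overlaps another. Stretches were listed for 8 of the 10 genes, and 0 of the 8 held ACATTGT, against 2.56% of all stretches. The octamer was in 0 of the 8, against 1.6% of all. The E-box was in those of Lin28b and Igf2bp3, against 6.02% of all. The absence of a motif says only that these letters are not in these windows.

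Mycn, a MYC family transcription factor gene of embryonic progenitors, had overlapping groups. It read 10.32, 9.84 and 9.09 on knockout replicates 1 to 3, against 8.89, 9.41 and 9.14 on wild-type replicates 1 to 3. Knockout replicates 1 and 2 lay above all wild-type arrays and knockout replicate 3 lay within their range. The means were 9.75 ± 0.62 in knockout and 9.15 ± 0.26 in wild type (SD, n = 3 each), a difference of 0.60 ± 0.27 (SE), and 0.32 ± 0.24 without knockout replicate 1. The 2 other Mycn probe sets lay under the filter level on all arrays. Myc, the paralogue that drives growth in many dividing cells, read 3.15, 2.72 and 2.70 on knockout replicates 1 to 3 and 2.65, 2.67 and 2.75 on wild-type replicates 1 to 3, also under the filter level.

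Hmga2, a chromatin protein gene with many let-7 sites and often used as the readout of let-7 activity, was bright in both groups and did not separate them. Its brightest probe set read 12.04, 11.76 and 11.28 on knockout replicates 1 to 3, against 11.64, 11.72 and 11.72 on wild-type replicates 1 to 3. The wild-type arrays lay together inside the wider range of the knockout arrays. The difference was 0.00 ± 0.16 (SE), at 11.69 ± 0.39 in knockout and 11.69 ± 0.05 in wild type (SD, n = 3 each). Over its 3 tested probe sets the difference ran from 0.00 to 0.12, and without knockout replicate 1 from -0.18 to 0.01. Another probe set of Hmga2, at 1.34 to 1.73 on knockout arrays and 1.80 to 2.11 on wild-type arrays, was under the filter level.

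The IGF2BP proteins bind and stabilise mRNAs such as that of Igf2, and are made in embryos and again in tumours. Igf2bp1 read 9.12, 9.19 and 8.94 through its brightest probe set on knockout replicates 1 to 3, against 9.11, 9.18 and 9.36 on wild-type replicates 1 to 3. The groups overlapped, and the difference was -0.13 ± 0.14 (SE), or -0.15 ± 0.16 without knockout replicate 1. Over the 3 tested Igf2bp1 probe sets the difference ran from -0.13 to 0.15. Igf2bp3 read 8.86, 8.86 and 8.70 on knockout replicates 1 to 3, against 8.90, 8.68 and 8.85 on wild-type replicates 1 to 3. Those groups overlapped as well, with a difference of -0.002 ± 0.14 (SE), or -0.03 ± 0.16 without knockout replicate 1. Over 5 tested Igf2bp3 probe sets the difference ran from -0.18 to 0.12, and without knockout replicate 1 from -0.40 to -0.03.

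Dis3l2, the exonuclease that degrades tailed let-7 precursors, was measured at low levels. Its tested probe set read 5.68, 5.34 and 5.44 on knockout replicates 1 to 3, against 5.15, 5.14 and 5.42 on wild-type replicates 1 to 3. The ranges overlapped through knockout replicate 2 and wild-type replicate 3, and the difference was 0.25 ± 0.18 (SE), or 0.15 ± 0.20 without knockout replicate 1. Another Dis3l2 probe set was lower in knockout, at 2.60 to 3.22 against 3.69 to 3.81 in wild type, but lay under the filter level on all arrays, so no fold is given.

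**Figure D2:**
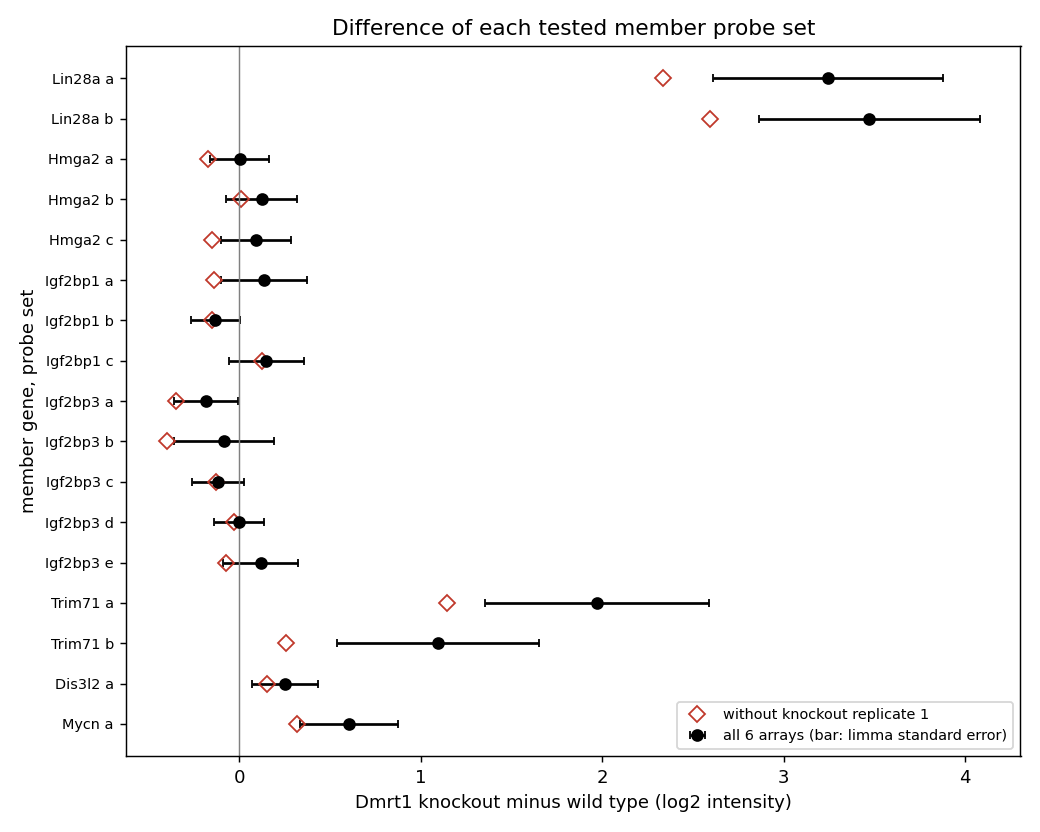
Knockout minus wild-type difference (log2 intensity) of each of the 17 tested probe sets, labelled by gene and letter from top to bottom. Black points are the fit on all 6 arrays with limma's standard error, and red diamonds are the difference without knockout replicate 1. The Lin28a probe sets lie at 3.24 and 3.47, and at 2.34 and 2.59 without that array, while those of Hmga2, Igf2bp1 and Igf2bp3 lie between -0.18 and 0.15 with all arrays.

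Through the brightest probe set, 1 of the 7 tested genes, Lin28a, was past an adjusted p of 0.05 in the limma fit over all probe sets, against 3.55% of the 11897 tested genes in either direction and 1.28% higher in knockout. By probe sets 2 of the 17 were past it, both of Lin28a, against 6.60% of the 22040 tested in either direction and 1.46% higher in knockout. The dimmer of the 2 passed the filter through the knockout arrays alone, with all wild-type values under the filter level. It is in this count and in that of groups without overlap below, and adds no separate support. The call of Lin28a ended without wild-type replicate 1, which left 0 of the 7 genes past the threshold. Since that difference was known when the genes were chosen, nothing is read from these counts. The median difference of the 7 was 0.25, with 5 positive and 2 negative, against a median of 0.02 over all tested genes. Of the 17 tested probe sets 4 had groups that did not overlap, those of Lin28a and Trim71, with knockout above in each. That compares with 26.5% of all tested probe sets in either direction and 11.2% with knockout above.

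The knockout arrays differed from each other more than the wild-type arrays in 15 of the 17 probe sets, against 68.2% of all tested probe sets. Knockout replicate 1 was the highest of the 6 arrays in 12 of the 17, against 16.9% of all tested probe sets. Knockout replicate 3 was the lowest array in 6 of the 17, against 22.6% of all. The 17 probe sets share these 6 arrays, and several share a gene, so these counts are a description.

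The genes whose array profile was most like that of Lin28a were Cdx2, Dppa2, Sall4, Sox2 and Dppa3. Likeness was the root mean square difference between log2 profiles over the 6 arrays, each centred on its own mean, among 19524 tested probe sets of genes outside the group. It was 0.34 for Cdx2, a factor of trophectoderm and gut, 0.42 for Dppa2, a chromatin protein of pluripotent cells, and 0.45 for Sall4, a zinc finger protein of stem cells and early germ cells. It was 0.48 for Sox2, a pluripotency factor, and 0.57 for Dppa3, a maternal and germ cell factor. For comparison it was 0.19 for the other Lin28a probe set, 0.74 for Trim71, 1.47 for Mycn, and 1.90 in the median over the candidates. Of the candidate probe sets 8 were closer to Lin28a than Trim71 was. The measure includes the knockout against wild-type difference, already known for Lin28a when the genes were chosen, so nothing is read from that count. Cdx2 read 10.52, 8.16 and 6.82 on knockout replicates 1 to 3, against 4.29, 5.27 and 5.02 on wild-type replicates 1 to 3.

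**Figure D3:**
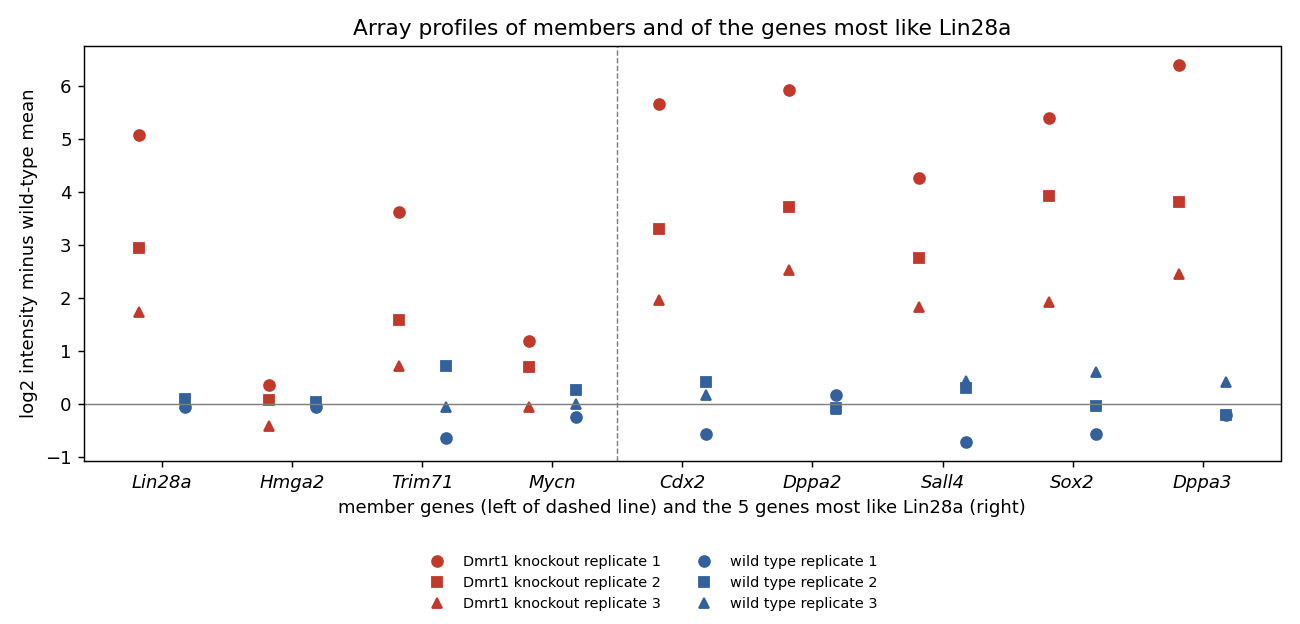
Log2 intensity minus the gene's own wild-type mean for 4 of the genes (left of the dashed line) and the 5 genes most like Lin28a (right), knockout arrays in red left of wild-type arrays in blue, 1 marker shape per replicate number. In Lin28a and in each of the 5 genes knockout replicate 1 is the highest array and knockout replicate 3 the lowest of the knockout arrays, while Hmga2 stays near 0 on all arrays.

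Marker genes of several cell types also differed between the arrays. All 5 markers of pluripotent or early germ cells had a probe set and passed the filter level on at least 1 array. Their summed intensity was 720.2 to 4847 in knockout, with the highest value on knockout replicate 1, and 159 to 301 in wild type. Pou5f1 and Nanog did not pass the threshold (limma adjusted p = 0.122 and 0.139). On knockout replicate 3 they read 31.6 and 34.13 intensity units, against up to 30.71 and 32.63 in wild type. Sox2, Sall4 and Dppa3 are also among the genes most like Lin28a, so this sum is not a separate observation. The 4 germ cell markers summed to 8479 to 11785 in knockout, again highest on knockout replicate 1, and 7943 to 9064 in wild type. That order did not hold for Sycp3, a meiotic chromosome axis gene, which read 11.03, 11.27 and 11.10 on knockout replicates 1 to 3, against 11.11, 11.19 and 11.08 on wild-type replicates 1 to 3. Summed markers of stroma (4 of 4 on the array) were lower on every knockout array, at 16904 to 17654 against 19594 to 21071 in wild type. Of these, Dcn and Col1a1 were lower on every knockout array, while Pdgfra and Nr2f2 overlapped between the groups. Endothelial markers (4 of 4, of which Pecam1 and Cdh5 stayed under the filter level) summed to 631 to 737 in knockout, against 874 to 982 in wild type. Erythroid markers (2 of 4, with Hba-a1 under the filter level) summed to 157 to 247 in knockout, against 305 to 835 in wild type. Among single genes of the marker lists, Tek of endothelium fell by 0.51 on the log2 scale (limma adjusted p = 0.0452). Slc4a1 of red cells fell by 1.44 (limma adjusted p = 0.0275). Ptprc of leukocytes fell by 1.06 (limma adjusted p = 0.0357), and knockout replicate 1 read 3.78 for it, short of log2 4. Larger changes were the rises of Sall4 and Dppa3, by 2.94 and 4.22 (limma adjusted p = 0.00728 and 0.00817). For Dppa3, 2 of the wild-type values were dimmer than log2 4. Sox2 passed the filter through knockout alone, with all wild-type values dimmer than log2 4. Its fold is therefore a bound of at least 5.28, taken against the filter level, and its fitted difference was 3.75. Mesonephros markers (2 of 3) summed higher on every knockout array, at 224 to 226 against 175 to 217 in wild type. Pax8, the brighter, overlapped between the groups, and Lhx1 was higher on every knockout array without passing the threshold (limma adjusted p = 0.255). Summed leukocyte markers (4 of 4) overlapped, at 1283 to 2410 in knockout, lowest on knockout replicate 1, and 1963 to 2664 in wild type. By mean log2 the same list separated the groups, as knockout arrays (6.61 to 7.39) lay below all wild-type ones (7.49 to 7.76). Ptprc and Cd68 were lower on every knockout array, while Adgre1 and Csf1r, the brightest of the list, overlapped. Pregranulosa markers (4 of 4) overlapped at 2895 to 3342 on knockout arrays and 2692 to 3134 on wild-type arrays, as did Sertoli markers (3 of 3) at 27.5 to 39.5 on knockout arrays and 36.4 to 38.2 on wild-type arrays. The part of these cells in the levels of Lin28a and Trim71 was not tested. In whole ovaries, more cells of a type and more RNA per cell cannot be told apart.

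The other genes of the pathway were described from 7 lists holding 99 genes, of which 81 had a probe set and 76 were tested. Across them 0 genes rose and 3 fell in knockout (limma, Benjamini-Hochberg over all tested probe sets), or 3.95% of 76, against 3.55% of all tested genes in either direction and 2.27% lower in knockout. Their median difference was 0.00, with 38 negative and 38 positive. At an unadjusted p under 0.05 there were 20 of the 76, against 17.4% of all tested genes. The 3 that fell were Tut4, Mir99ahg and Ago2. These counts use the brightest probe set of a gene. Of the 86 other tested probe sets of list genes 1 rose and 6 fell, and 3 of those 6 were under the filter level on all knockout arrays. Over all tested probe sets 1.46% were higher and 5.15% lower in knockout.

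Tut4, the uridylyl transferase that LIN28A recruits to the let-7 precursor, fell 2.70-fold. It read 6.99, 6.54 and 7.30 on knockout replicates 1 to 3, against 8.08, 8.62 and 8.42 on wild-type replicates 1 to 3, so every knockout array was below every wild-type array. The difference was -1.43 ± 0.22 (SE, 3 arrays in each group, limma adjusted p = 0.00359), and over all alternatives the adjusted p ran from 0.00168 to 0.0199. It has 3 other tested probe sets. Of these, 1 lay above the filter level in both groups, at 6.65 in knockout and 6.64 in wild type, and differed by 0.01 ± 0.18 (limma adjusted p = 0.984). The remaining 2 were under that level on all knockout arrays and passed the filter through wild type alone, so they give only bounds, at least 1.54-fold and at least 1.28-fold lower in knockout. Those probe sets disagree, and which transcripts each detects was not analysed here. Tut7, its paralogue (chosen after its values were seen), differed by -0.17 ± 0.13 (limma adjusted p = 0.488) through its brightest probe set and by 0.32 ± 0.17 (0.333) through the other. In the list of LIN28 partners and precursor tailing 1 of 7 tested genes fell and 6 did not pass, with a median of -0.17.

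Among let-7 genes and host transcripts 3 of 17 listed genes were tested, 1 fell and 2 did not pass. Mir99ahg, a long noncoding RNA named for the Mir99a and let-7c cluster, fell 2.61-fold. It read 5.53, 6.10 and 6.25 on knockout replicates 1 to 3, against 7.52, 7.45 and 7.06 on wild-type replicates 1 to 3, without overlap. The difference was -1.38 ± 0.22 (SE, 3 arrays in each group, limma adjusted p = 0.00469), with adjusted p from 0.00258 to 0.0309 over the alternatives, and its other probe set, under the filter level on 2 of 3 knockout arrays, fell 2.62-fold with those arrays set at that level. In the RefSeq table used, the span of Mir99ahg ends before Mir99a and before Mirlet7c-1, the hairpin printed above, so the value says nothing of let-7c itself. Huwe1, whose gene holds let-7f-2 and Mir98, differed by -0.29 ± 0.15 (limma adjusted p = 0.320), and its other 2 probe sets by -0.61 ± 0.16 (0.0534) and -0.38 ± 0.16 (0.224). Wdr82, whose gene holds let-7g, differed by -0.003 ± 0.11 (limma adjusted p = 0.993). Huwe1 and Wdr82 were named after their values were seen, and Lncppara, which holds let-7b and let-7c-2, lay under the filter level.

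In the list of microRNA processing and action 1 of 19 tested genes fell, 0 rose and 18 did not pass, with a median of -0.02. Ago2, the Argonaute that cuts paired targets, fell 1.47-fold. It read 9.51, 9.64 and 9.43 on knockout replicates 1 to 3, against 10.01, 10.06 and 10.16 on wild-type replicates 1 to 3, and the groups did not overlap. The difference was -0.55 ± 0.12 (SE, 3 arrays in each group, limma adjusted p = 0.0209), and 2 of its 4 tested probe sets fell. That call ended without knockout replicate 1 (0.0565), without wild-type replicate 1, 2 or 3 (0.0648, 0.0910 and 0.117) and with the replicate number as a block (0.0920), all limma adjusted p. Dicer1, which cuts the precursor into the mature microRNA (chosen after its values were seen), differed by -0.28 ± 0.18 (limma adjusted p = 0.435), and its other tested probe set by -0.70 ± 0.19 (0.0540). Ago3, another Argonaute (also chosen after its values were seen), differed by -0.63 ± 0.18 (limma adjusted p = 0.0656) through its brightest probe set. Of its other probe sets a dim one, under the filter level on all knockout arrays, fell at least 1.59-fold, and the other differed by 0.57 ± 0.19 (0.114).

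Of 13 other let-7 targets that were tested 0 passed and 5 had an unadjusted p under 0.05, against 17.4% of all tested genes. The median difference of the 13 was 0.01, with 6 negative and 7 positive. The smallest p belonged to Nr6a1, an orphan nuclear receptor of early embryos, at 9.39, 8.43 and 8.62 on knockout replicates 1 to 3 against 7.82, 8.26 and 7.55 on wild-type replicates 1 to 3. Its groups did not overlap, with a difference of 0.94 ± 0.26 (SE, 3 arrays a group, limma adjusted p = 0.0646), or 0.65 without knockout replicate 1. Arid3b, a DNA-binding factor of stem cells, read 5.80, 4.62 and 4.93 on knockout replicates 1 to 3 and 3.90, 4.32 and 4.13 on wild-type replicates 1 to 3. It differed by 1.01 ± 0.29 (limma adjusted p = 0.0685), or 0.66 without knockout replicate 1, with 1 wild-type array under the filter level. Under array weights the limma adjusted p was 0.0339 for Nr6a1 and 0.0287 for Arid3b. Leaving out knockout replicate 2 gave 0.0396 for Nr6a1 and 0.0318 for Arid3b. Nr6a1 also passed when probe sets matching more than 1 transcript were dropped (0.0462), and Arid3b with quantile normalization (0.0436). The rest of the 5, named after their values were seen, were lower in knockout. Cdk6 differed by -0.41, Igf1r by -0.77 and Insr by -0.54 (limma adjusted p = 0.0822, 0.120 and 0.119). Targets with a negative difference also passed under some alternatives. Without knockout replicate 1 the limma adjusted p was 0.0160 for Igf1r and 0.0448 for Ccnd1, and under array weights 0.0487 for Insr.

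In the 3 remaining lists 0 genes passed through their brightest probe set. Their counts at an unadjusted p under 0.05 stand against 17.4% of all tested genes. Of 15 genes of the RNA exosome and 3′ to 5′ decay 2 had an unadjusted p under 0.05, with a median of 0.11. The exosome subunit gene Exosc4 differed by -0.28 ± 0.10 (limma adjusted p = 0.142) and Exosc5, another subunit, by 0.42 ± 0.18 (0.227). Of 10 tested IGF2 and insulin-like growth factor genes 5 had an unadjusted p under 0.05, with a median of -0.22. Igf1r and Insr are among these 5 and among the 5 of the let-7 targets above, so the counts share genes. Igf2r, the receptor that clears IGF2, differed by -0.46 ± 0.13 (limma adjusted p = 0.0662), and Igfbp2, a secreted IGF-binding protein, by 0.39 ± 0.12 (0.0901). The probe sets of Igf2, the fetal growth factor gene (chosen after its values were seen), disagreed: the brightest differed by -0.06 ± 0.07 (limma adjusted p = 0.695) and the other fell, with a difference of -1.34 ± 0.27 (0.0163). Of 11 MYC network partners 2 had an unadjusted p under 0.05, with a median of 0.05. Mga, a MAX partner that represses germline genes in stem cells, differed by -0.40 ± 0.13 (limma adjusted p = 0.122), and Mlxip, a glucose-sensing member of the network, by -0.35 ± 0.13 (0.163). Of 3 probe sets of Mxd4, a MAX partner that opposes MYC (chosen after its values were seen), 1 rose, with a difference of 0.90 ± 0.21 (limma adjusted p = 0.0322), while the brightest differed by 0.18 ± 0.11 (0.409) and the third by 0.23 ± 0.17 (0.504).

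**Figure D4:**
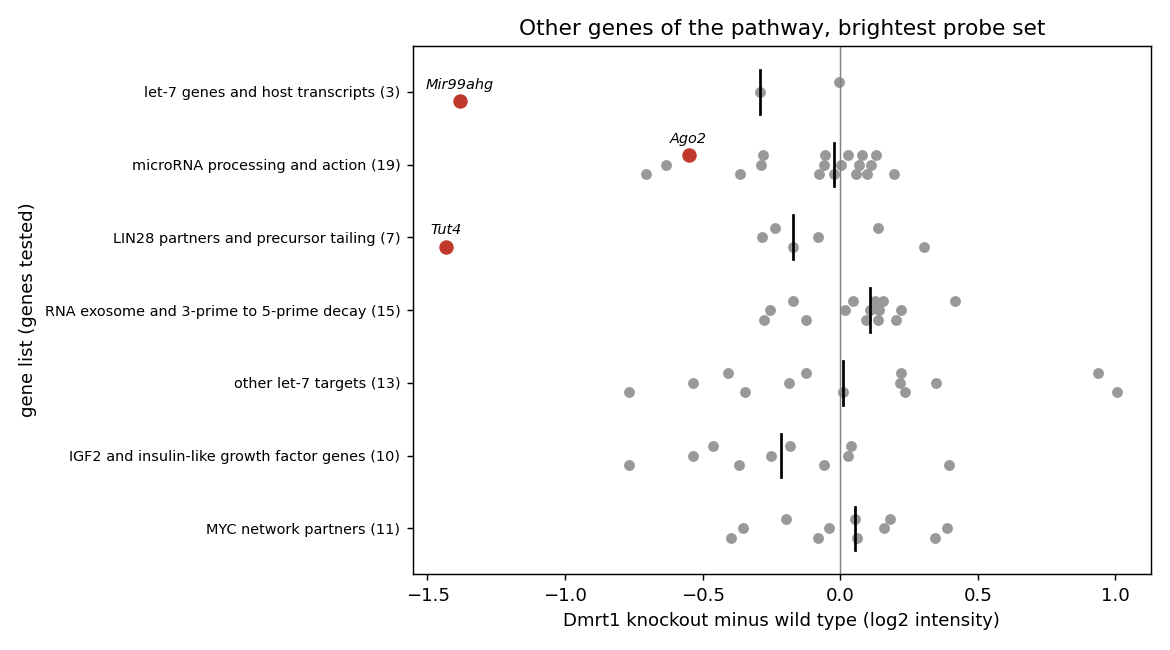
Knockout minus wild-type difference (log2 intensity, brightest probe set) of each tested gene in 7 pathway lists, with the number tested after each list's name and vertical black bars at list medians. Red points are the 3 genes past the threshold, Tut4 at -1.43, Mir99ahg at -1.38 and Ago2 at -0.55, and all others are grey. Genes in 2 lists appear in both.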

How the data were processed

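Expression was measured on 6 arrays of E15.5 mouse ovaries. The deposited values are linear intensities per probe set, made by the authors with GCRMA (background adjustment, normalization and summary of probes), per the submitters' processing notes, with version and settings not given. Dim probe sets end near a floor under GCRMA and carry no detection call, and precision is limited by the number of arrays. Of 45101 probe sets 64 controls were left out.

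Intensities were taken to log2 with no pseudocount. Knockout and wild type were tested against each other in limma (version 3.58.1, R 4.3.3) by lmFit and eBayes with trend, with a term for genotype alone and 2-sided p-values adjusted by Benjamini-Hochberg over 22040 tested probe sets at 0.05. The filter level was log2 4 on at least 3 of 6 arrays. A gene was counted through its brightest tested probe set. Symbols came from the platform annotation, updated through RefSeq (GRCm38.p6). One gene was named per probe set for 34945 probe sets, several for 932 and none for 9160, and 0 symbols changed. Folds set arrays under the filter level at that level.

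The genes named are the 10 of the axis, the list genes past the threshold or else the 2 of lowest p, the 5 most like Lin28a, and markers. The genes and lists were chosen with earlier results of these data known. The fit was tested on simulated data. No pair of arrays was identical. Alternatives were other filters, moderation, weights, a replicate block, scalings, probe set choices, a pseudocount of 16 and leaving out each array.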

Additional observations from a re-analysis of the deposited data

How the results depend on the processing

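Lin28a was the gene past the threshold among the 7 and kept its direction under every alternative run, with differences from 2.34 (without knockout replicate 1) to 4.0 (without knockout replicate 3), and 2.74 with a pseudocount of 16. The count of 1 became 2 with array weights, which added Trim71, and ran from 0 (without wild-type replicate 1) to 3 (without knockout replicate 3, adding Trim71 and Mycn) when arrays were left out. The count of 3 pathway genes (0 rose, 3 fell) became 6 with array weights (2 rose, 4 fell) and 5 after dropping probe sets of more than 1 transcript, was 1 rise and 3 falls with quantile normalization, and ran from 2 (without wild-type replicate 1, 2 or 3) to 8 (without knockout replicate 2) when arrays were left out. Over all tested probe sets, 321 were higher and 1134 lower in knockout (1455 in all), against 3282 with no filter, 644 with the stricter filter of log2 6, 342 genes when the probe sets of a gene were averaged, and 808 (without wild-type replicate 2) to 1541 (without knockout replicate 2) when arrays were left out. Without wild-type replicate 1 or 3 it was 879 or 910. The number of features tested was 45037 with no filter, 16098 with the stricter filter and 11897 for averaged genes. It stayed at 22040 when arrays were left out. What drove the differences between these counts was not tested. As a block, the replicate number gave 1043 probe sets, 1 of the 7 genes and 2 pathway genes. The deviations of same-numbered arrays correlated at -0.17, -0.25 and -0.17, and 0 of 3 knockout arrays correlated best with the wild-type array of their number. The highest values were 0.33 for knockout replicate 1 with wild-type replicate 2, 0.34 for 2 with 3, and 0.24 for 3 with 1. With 3 arrays in each group these values cannot settle whether any arrays were paired. The dim signal of Lin28b, Myc and Dmrt1 limits what can be said of them.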
